A study of Mus musculus with 6 samples.

Results

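The smooth muscle contractile apparatus and its cytoskeleton was followed as a set of 39 genes in the thoracic aorta of mice, on 6 Illumina bead arrays with 45281 probes each. Members were chosen by gene symbol. A probe was kept if its detection p, the chance of such a signal among negative control beads, was under 0.01 on at least 2 of 6 arrays. By that rule 33 of the 39 genes were measured, with 58 of their 75 probes, among 9837 genes and 16749 kept probes in all. Cnn3 (a calponin), Rock2 and Tgfb1i1 (a LIM protein of adhesion sites) had no probe named here. The probes of Ppp1r12b (a targeting subunit of myosin phosphatase), Tln1 (talin) and Filip1l were not kept. All values below are background-corrected, quantile-normalized log2 signals, on which a difference of 1 is a factor of 2, and a gene is shown by its kept probe with the highest mean.

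All mice were C57 Bl/6 and 12 weeks old. Transgenic mice (TG SM-CaMKIIN, here TG) carried the CaMKII inhibitor peptide CaMKIIN in smooth muscle only, and wild-type littermates (WT) did not. The sources used here do not name the promoter of the transgene. Osmotic minipumps released the vasoconstrictor hormone angiotensin II (Ang-II, 1.25 ug/kg/min) or 0.9% saline over 14 days. The WT saline and the TG saline group had 1 array each, and the WT Ang-II and the TG Ang-II group had 2 each. RNA of the 5 mice of a group was pooled per the design text, while the titles number the 2 Ang-II arrays of a genotype as biological replicates. Which mice entered which array is not stated, and the spread that the p-values rest on may thus be technical.

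Smooth muscle contracts when calcium-calmodulin activates myosin light chain kinase, which phosphorylates the regulatory light chain and lets myosin pull on actin filaments. Myosin phosphatase reverses that step, and the phosphatase inhibitor CPI-17 holds it back. The filaments end in dense bodies and adhesion plaques that join them to intermediate filaments and to the matrix. Many of these genes are known targets of serum response factor and its cofactor myocardin, which act through the CArG box, and vascular smooth muscle that leaves the contractile state is known to make less of their transcripts. CaMKII is a calcium-calmodulin-dependent kinase that is also present in smooth muscle, and the design asks how its inhibition there bears on the aortic response to Ang-II.

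The set was among the brightest on the arrays. The Acta2 probe used here ranked 9 among all 45281 probes by mean signal, 34 member probes lay among the 1000 brightest, and 23 of the 33 genes had a mean of at least 12, a level that 650 of the 9837 genes reached. All members but Synpo2, which was detected on 5, were detected on all 6 arrays, so that the smooth muscle markers Acta2, Myh11, Tagln, Cnn1 and Smtn were present as the label of the tissue implies. Between 34.0% and 35.5% of probes were detected per array. The 2 arrays of an Ang-II group differed over the members with an SD of 0.15 in WT and 0.15 in TG, against 0.26 and 0.28 over all genes, and the beads of a member's probe gave a standard error of 4.03% to 5.61% of its signal (medians by array).

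Other cell types were present and moved with the groups. Of 11 measured heart muscle markers, 10, 8, 4, 5, 11 and 11 were detected on the WT saline, TG saline, WT Ang-II (both) and TG Ang-II (both) arrays. Their summed linear signal in that order was 3232, 2510, 1587, 1624, 31224 and 29307. The brightest of them were Actc1 (cardiac actin) and Ryr2 (a calcium release channel). Actc1 lay between 8.55 and 9.44 on the saline and WT Ang-II arrays and at 12.37 and 12.29 on the TG Ang-II arrays. Ryr2, which is part of each sum, lay between 9.60 and 10.33 on all 6. The summed signal of the 33 members was 446166, 419797, 351315, 349706, 371837 and 369657. Fewer smooth muscle cells in a sample and less RNA per cell cannot be told apart in such pooled tissue.

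In WT aorta most of the set was lower under Ang-II. Of the 33 members, 6 fell and none rose (limma, Benjamini-Hochberg adjusted p under 0.05 over all kept probes), where 2.63% of all genes fell and 6.09% rose. The members that fell were Tpm2, Tagln, Lmod1, Ppp1r14a, Des and Flna. By sign, 31 of 33 were lower under Ang-II (55% of all genes were), 18 of them at an unadjusted p under 0.05 (12.6% of all genes), with a median difference of -0.43 against -0.05 over all genes. Both WT Ang-II arrays lay below the WT saline array for 30 of the 33, against 45.1% of all genes, and the exceptions were Acta2, Tpm4 and Vcl. Among genes as bright as a mean of 12 or more, 6 of 650 (0.923%) fell, and 3 of these 6 were Tpm2, Tagln and Flna. By role, the median difference in WT was -0.47 for myosin and its light chains, -0.48 for the actin filament, -0.46 for myosin phosphorylation, -0.63 for the intermediate filaments, -0.22 for the adhesion plaque, -0.55 for the LIM and PDZ scaffold and -0.30 for the cell surface, over 3, 11, 4, 2, 6, 5 and 2 genes. Without either one of the 2 WT Ang-II arrays, 0 of the 6 passed, although each kept its sign.

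In TG aorta 3 members fell under Ang-II (Cnn2, Ppp1r14a and Rock1) and 1 rose (Ppp1r12a), where 1.56% of all genes fell and 5.23% rose. Lower values were found for 27 of 33 (57.4% of all genes), with a median of -0.23 against -0.06 over all genes, and both TG Ang-II arrays lay below the TG saline array for 23 (background 46.1%). The count of 4 fell to 0 or 1 when any single Ang-II array was left out, and Cnn2 was the only one that passed in any of these fits. Averaged over both genotypes, 13 members fell and none rose, with a median of -0.38, where 7.01% of all genes fell and 10.4% rose. These 13 were Tpm2, Cnn1, Cnn2, Tagln, Smtn, Lmod1, Ppp1r14a, Rock1, Des, Flna, Ilk, Synpo2 and Aoc3. All 4 Ang-II arrays lay below both saline arrays for 21 of 33 members, against 20.5% of all genes, and above both for none, against 15.4%. Without 1 Ang-II array between 3 and 8 of the 13 passed, and Tagln, Ppp1r14a and Rock1 passed in each of these fits. The WT and the TG response share no array, but the average is built from both.

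**Figure D1:**
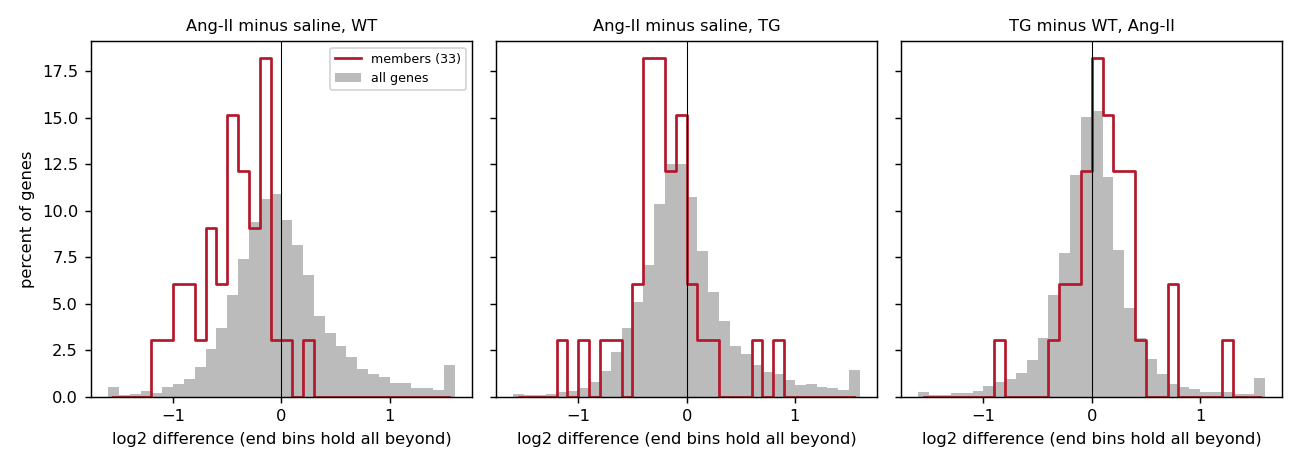
Histograms of the log2 difference per gene for 33 members and for 9837 genes, for the Ang-II response in WT, in TG and for TG minus WT under Ang-II (x axis, log2 difference; y axis, percent of genes). The members' median of -0.43 in WT and -0.23 in TG lies left of the medians of all genes, -0.05 and -0.06.

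Under Ang-II, 2 of 33 members, Lmod1 and Des, passed as higher in TG than in WT aorta and none passed as lower. Over all genes 3.02% passed as higher and 2.33% as lower. By sign 23 of 33 members were higher and 10 lower in TG, where all genes split evenly, with a median of 0.11, and for 18 both TG Ang-II arrays lay above both WT Ang-II arrays (background 26.6%). The opposite order held for 6 members, Myl6, Tpm4, Cnn2, Rock1, Vim and Ilk (background 26.5%). For Myl6 it turned with the probe: its second probe (ILMN_2900910) read 14.29 and 14.44 on WT Ang-II and 14.55 and 14.51 on TG Ang-II. Acta2, among the 18, turned as well: on its dimmer probes ILMN_2710354 and ILMN_2710353 both TG Ang-II arrays lay below both WT Ang-II arrays. Of the 58 kept member probes, 27 had the TG Ang-II arrays above and 15 had them below (24.9% and 27.8% of all kept probes). Between the saline arrays no member passed (limma, where 0.102% of all genes were higher and 0.061% lower in TG). At an unadjusted limma p under 0.05, 1 member was higher and 3 were lower (7.17% and 6.56% of all genes). By sign 22 of 33 were lower in TG (48% of all genes), with a median of -0.07. Under median scaling 15 of 33 were lower and the median was 0.02. The test of a genotype difference in the Ang-II response, the interaction, also passed for no member, with 7 members above and 1 below 0 at unadjusted p under 0.05 (6.62% and 6.89% of all genes). The interaction was above 0 for 25 of 33 members (48.7% of all genes) with a median of 0.25, and over all genes 0.722% passed upward and 0.539% downward. A value above 0 is a smaller fall or a larger rise in TG, each genotype measured from its own saline array. A lower TG saline array raises this value too, so it does not part a saline difference from a difference under Ang-II. Each genotype's response rests on 1 saline array, and the comparison under Ang-II shares both WT Ang-II arrays with the WT response.

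**Figure D2:**
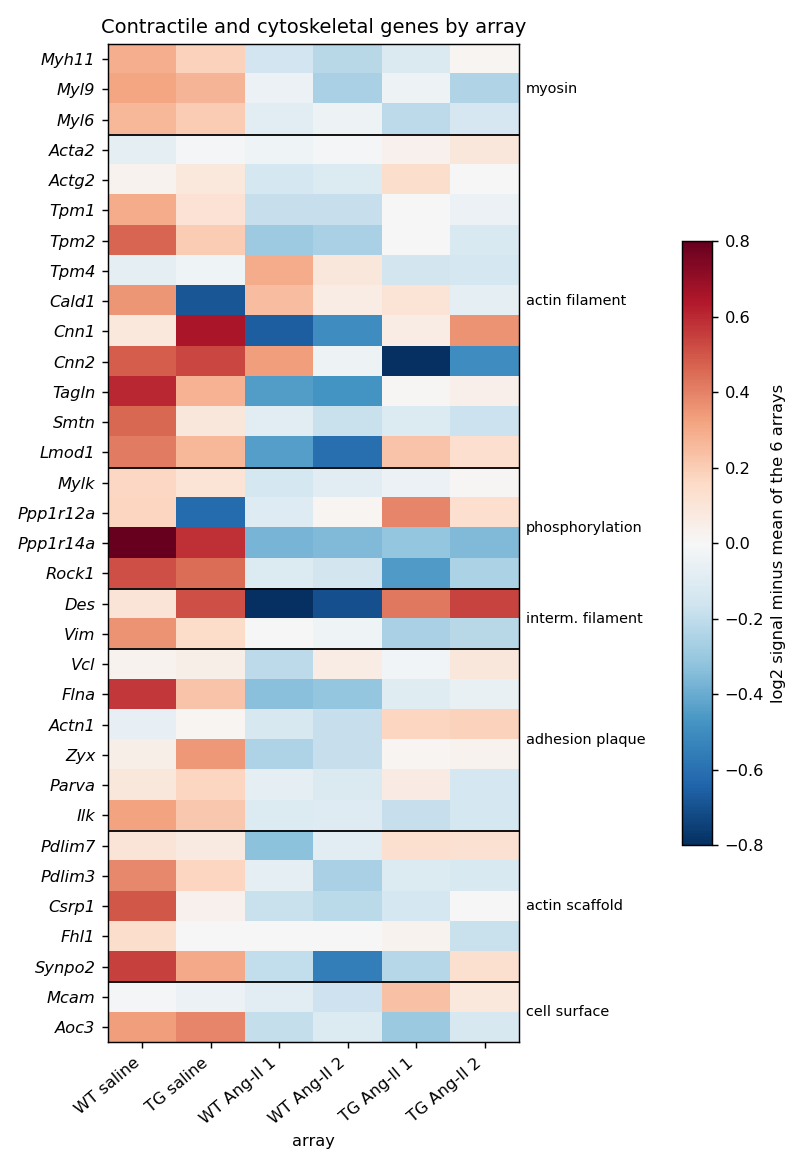
Heat map of 33 members (rows, by role) on 6 arrays (columns), as log2 signal minus the gene's mean over the arrays, with the colour scale ending at 0.8 in each direction. The WT saline array was the highest of the 6 for 19 members, against 23.2% of all genes.

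To place these responses beside the known CArG element, the promoters of the members were read from the RefSeq table of mouse build GRCm38.p6, which held 32 of the 39 genes in 39 windows of 300 bases, 250 before and 50 after the start of the gene. The CArG box, here exactly 6 bases of A or T between CC and GG, was searched on both strands. No mismatch was allowed, so that a box with a changed base or one outside the window would be missed. It lay in the windows of 6 of the 32 genes (18.8%), against 1.81% of 27025 genes in the table. These were Cnn2, 56 bases before the start, Myl6 at 50, Filip1l at 62, Fhl1 at 102, Myl9 at 161 and Vcl at 227. Of the 5 that were measured, Cnn2 was the only one whose brightest probe passed in a comparison. The windows of Ppp1r14a, Des, Lmod1, Tpm2 and Flna, which fell in WT, held no match, and Tagln and Myh11 were not in the table. The 250 bases before the start are shown for 3 members with a box (capitals), whose responses were not tested against each other. They are also shown for the 2 members with the smallest adjusted p, Ppp1r14a in a response and Des between genotypes, in which no letter is capital. A match is a description of letters and not a bound site. The windows are those of Cnn2 (chr10:79988350-79988599), Myl9 (chr2:156775214-156775463), Vcl (chr14:20929148-20929397), Ppp1r14a (chr7:29289070-29289319) and Des (chr1:75360042-75360291), all on the plus strand.
Cnn2: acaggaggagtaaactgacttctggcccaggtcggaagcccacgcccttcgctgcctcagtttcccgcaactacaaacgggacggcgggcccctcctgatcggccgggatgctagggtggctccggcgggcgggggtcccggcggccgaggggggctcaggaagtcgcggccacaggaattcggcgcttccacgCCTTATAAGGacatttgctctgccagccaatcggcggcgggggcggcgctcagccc
Myl9: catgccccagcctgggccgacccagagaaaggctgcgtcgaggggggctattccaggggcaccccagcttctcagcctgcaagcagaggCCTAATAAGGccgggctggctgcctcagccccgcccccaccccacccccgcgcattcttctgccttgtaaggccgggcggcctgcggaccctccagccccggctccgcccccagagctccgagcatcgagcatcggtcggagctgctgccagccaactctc
Vcl: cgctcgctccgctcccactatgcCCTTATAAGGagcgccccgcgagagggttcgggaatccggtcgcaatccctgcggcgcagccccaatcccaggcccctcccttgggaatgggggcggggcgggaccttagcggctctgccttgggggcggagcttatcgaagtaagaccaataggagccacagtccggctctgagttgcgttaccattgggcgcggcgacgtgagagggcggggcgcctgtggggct
Ppp1r14a: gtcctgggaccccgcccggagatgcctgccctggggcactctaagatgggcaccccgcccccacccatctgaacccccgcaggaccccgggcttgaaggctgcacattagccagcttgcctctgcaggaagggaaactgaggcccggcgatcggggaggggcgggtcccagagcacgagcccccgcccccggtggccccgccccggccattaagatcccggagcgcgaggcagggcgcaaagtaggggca
Des: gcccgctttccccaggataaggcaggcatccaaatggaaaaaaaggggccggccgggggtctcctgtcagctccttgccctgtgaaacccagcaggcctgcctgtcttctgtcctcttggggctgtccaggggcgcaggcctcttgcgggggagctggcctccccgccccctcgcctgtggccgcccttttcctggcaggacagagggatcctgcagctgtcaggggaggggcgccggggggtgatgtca

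The motor itself was lower under Ang-II by sign but did not pass. Myh11, the smooth muscle myosin heavy chain, read 14.22 on WT saline, 14.11 on TG saline, 13.77 and 13.71 on WT Ang-II and 13.81 and 13.95 on TG Ang-II. All 4 Ang-II arrays lay below both saline arrays. The difference was -0.48 ± 0.16 (SE) in WT (adjusted p = 0.120), and the average was -0.36 ± 0.11 (adjusted p = 0.0784). Myl9, the regulatory light chain that the kinase phosphorylates, and Myl6, the essential light chain, ran alongside at -0.44 and -0.35 in the average (adjusted p = 0.0675 and 0.0739). Myl9 is one of the members whose promoter is shown with a CArG box.

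Of the 11 measured members of the actin filament 3 fell in WT, 1 in TG and 6 in the average, and none rose. Acta2, the smooth muscle α-actin, read 15.02 on WT saline, 15.08 on TG saline, 15.06 and 15.08 on WT Ang-II and 15.13 and 15.19 on TG Ang-II. No group stood apart on this probe: its WT response was 0.05 with a 95% interval of -0.32 to 0.42, and its TG response 0.08 with -0.30 to 0.45. The highest normalized value on an array was 15.36, so this probe lay near the top of the scale. Actg2, the enteric smooth muscle actin, differed by -0.16 in WT and -0.01 in TG and did not pass.

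Tagln, or SM22α, an actin-binding protein used as a marker of contractile smooth muscle, read 12.87 on WT saline, 12.55 on TG saline, 11.83 and 11.79 on WT Ang-II and 12.28 and 12.31 on TG Ang-II. Both WT Ang-II arrays were the lowest of the 6 and the TG Ang-II arrays lay between them and TG saline. Tagln fell 2.09-fold in WT (-1.06 ± 0.15, adjusted p = 0.0147), and the average fall was 1.58-fold (adjusted p = 0.0130), while its difference in TG was -0.26 ± 0.15 (adjusted p = 0.347). The genotype difference of the response was 0.81 ± 0.21 (95% interval 0.29 to 1.33) and did not pass after adjustment (adjusted p = 0.175). The average was still called without any single Ang-II array (adjusted p from 0.0238 to 0.0475).

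Lmod1, leiomodin 1, which nucleates actin filaments in smooth muscle, read 12.41 on WT saline, 12.25 on TG saline, 11.55 and 11.39 on WT Ang-II and 12.22 and 12.13 on TG Ang-II. The WT Ang-II arrays alone were low, and the other 4 lay between 12.13 and 12.41. In WT Lmod1 fell 1.91-fold (-0.94 ± 0.16, adjusted p = 0.0276), and in TG its difference was -0.08 ± 0.16 (adjusted p = 0.797). Under Ang-II it was 1.63-fold higher in TG than in WT (0.70 ± 0.13, adjusted p = 0.0441), a call lost without any single Ang-II array (adjusted p from 0.0978 to 0.177). Its interaction was 0.85 ± 0.23, with an adjusted p of 0.185.

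Tpm2, β-tropomyosin, which lies along the actin filament, read 14.24 on WT saline, 13.98 on TG saline, 13.49 and 13.52 on WT Ang-II and 13.77 and 13.65 on TG Ang-II. Every Ang-II array was below both saline arrays, the WT ones lowest. It fell 1.67-fold in WT (-0.74 ± 0.15, adjusted p = 0.0433), the average fall was 1.42-fold (adjusted p = 0.0304), and its TG difference was -0.27 (adjusted p = 0.347). The WT call was lost without any single Ang-II array of either genotype (adjusted p from 0.0531 to 0.142). Tpm1, the main muscle tropomyosin, differed by -0.48 in WT (adjusted p = 0.105), and Tpm4, a cytoskeletal tropomyosin, by 0.27, and neither passed.

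Of the calponins, which bind actin and slow the myosin motor, Cnn1 was higher and Cnn2 lower in TG than in WT under Ang-II by sign, and neither difference passed. Cnn1, the smooth muscle form, read 7.84 on WT saline, 8.41 on TG saline, 7.10 and 7.26 on WT Ang-II and 7.82 and 8.12 on TG Ang-II. It was lower under Ang-II within each genotype and higher in TG within each treatment, so that WT saline and the TG Ang-II arrays overlapped. Cnn1 fell 1.47-fold in the average (-0.55 ± 0.14, adjusted p = 0.0424), and TG exceeded WT by 0.79 ± 0.16 under Ang-II (adjusted p = 0.0512). Cnn2, the form of many nonmuscle cells, read 9.59 on WT saline, 9.64 on TG saline, 9.44 and 9.07 on WT Ang-II and 8.30 and 8.61 on TG Ang-II. On this probe the TG Ang-II arrays were the low ones, and its beads gave a standard error of 8.17% to 14.4% of its signal. Cnn2 fell 2.28-fold in TG (-1.19 ± 0.23, adjusted p = 0.0394), 1.70-fold in the average (adjusted p = 0.0284) and differed by -0.34 ± 0.23 in WT (adjusted p = 0.389). Its TG call was lost without the first TG Ang-II array and without either WT Ang-II array (adjusted p from 0.0603 to 0.0819). The interaction on this probe was -0.85, opposite in sign to those of Tagln and Lmod1, with an adjusted p of 0.333. A second, dimmer Cnn2 probe (ILMN_2596369), detected on 3 arrays, did not show a fall particular to TG. It differed by -1.12 in WT and -1.10 in TG (adjusted p = 0.179 and 0.206), with an interaction of 0.02.

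Smtn, smoothelin, a protein of fully contractile smooth muscle, read 13.94 on WT saline, 13.57 on TG saline, 13.39 and 13.30 on WT Ang-II and 13.37 and 13.31 on TG Ang-II. WT saline stood highest and the other 5 arrays lay between 13.30 and 13.57. Smtn fell 1.33-fold in the average (-0.42 ± 0.11, adjusted p = 0.0493), a call that ended without any single Ang-II array (adjusted p from 0.0804 to 0.121). Cald1, caldesmon, which restrains actin-activated myosin, was lowest on TG saline at 11.11, against 11.72 to 12.15 elsewhere. Its differences of 0.70 ± 0.18 in TG (adjusted p = 0.0781) and -1.03 ± 0.20 between the saline arrays (adjusted p = 0.125) did not pass.

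Among the genes that set myosin phosphorylation, the phosphatase inhibitor had the smallest adjusted p of the whole set in all 3 Ang-II responses. Ppp1r14a, which encodes CPI-17, read 12.18 on WT saline, 11.96 on TG saline, 11.01 and 11.02 on WT Ang-II and 11.07 and 11.03 on TG Ang-II. The 4 Ang-II arrays lay together, between 11.01 and 11.07, and below both saline arrays. It fell 2.24-fold in WT (-1.16 ± 0.15, adjusted p = 0.0121), 1.88-fold in TG (-0.91 ± 0.15, adjusted p = 0.0255) and 2.05-fold in the average (adjusted p = 0.00405). Its genotype difference under Ang-II was 0.04 with a 95% interval of -0.27 to 0.34. The average was called without any single Ang-II array (adjusted p from 0.00757 to 0.0231), while the TG call was lost in each of these fits (adjusted p from 0.0621 to 0.0636) and the WT call without either WT Ang-II array (adjusted p up to 0.0681). A second Ppp1r14a probe fell in WT (-0.98, adjusted p = 0.0225) and differed by -0.44 in TG (adjusted p = 0.163). On that probe TG exceeded WT under Ang-II by 0.50 (adjusted p = 0.0945), above the interval of the first probe.

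Rock1 read 10.78 on WT saline, 10.71 on TG saline, 10.15 and 10.12 on WT Ang-II and 9.81 and 10.01 on TG Ang-II. All Ang-II arrays lay below both saline arrays. Rock1 fell 1.74-fold in TG (-0.80 ± 0.17, adjusted p = 0.0458) and 1.65-fold in the average (adjusted p = 0.0135), and its WT difference of -0.64 did not pass (adjusted p = 0.0693). The TG call was lost without any single Ang-II array (adjusted p from 0.0617 to 0.113) and the average was not (0.0160 to 0.0493). Ppp1r12a, the subunit that targets the phosphatase to myosin, read 11.01 on WT saline, 10.23 on TG saline, 10.74 and 10.86 on WT Ang-II and 11.23 and 10.98 on TG Ang-II. The TG saline array was the single low one, and the TG Ang-II arrays were close to WT saline. Its rise in TG, 1.84-fold (0.88 ± 0.18, adjusted p = 0.0449), ended without any single Ang-II array (adjusted p from 0.0516 to 0.103). The second probe of the gene (ILMN_2671438) read 10.64, 10.40, 9.89, 10.05, 10.12 and 10.06 in the same order, a TG difference of -0.31 (adjusted p = 0.298) in the opposite direction. Mylk, myosin light chain kinase, the enzyme that starts contraction, read 14.21 on WT saline, 14.15 on TG saline, 13.90 and 13.95 on WT Ang-II and 13.99 and 14.05 on TG Ang-II. The Ang-II arrays were the lower 4, by little, and differences of -0.28 in WT and -0.13 in TG did not pass (adjusted p = 0.290 and 0.649).

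**Figure D3:**
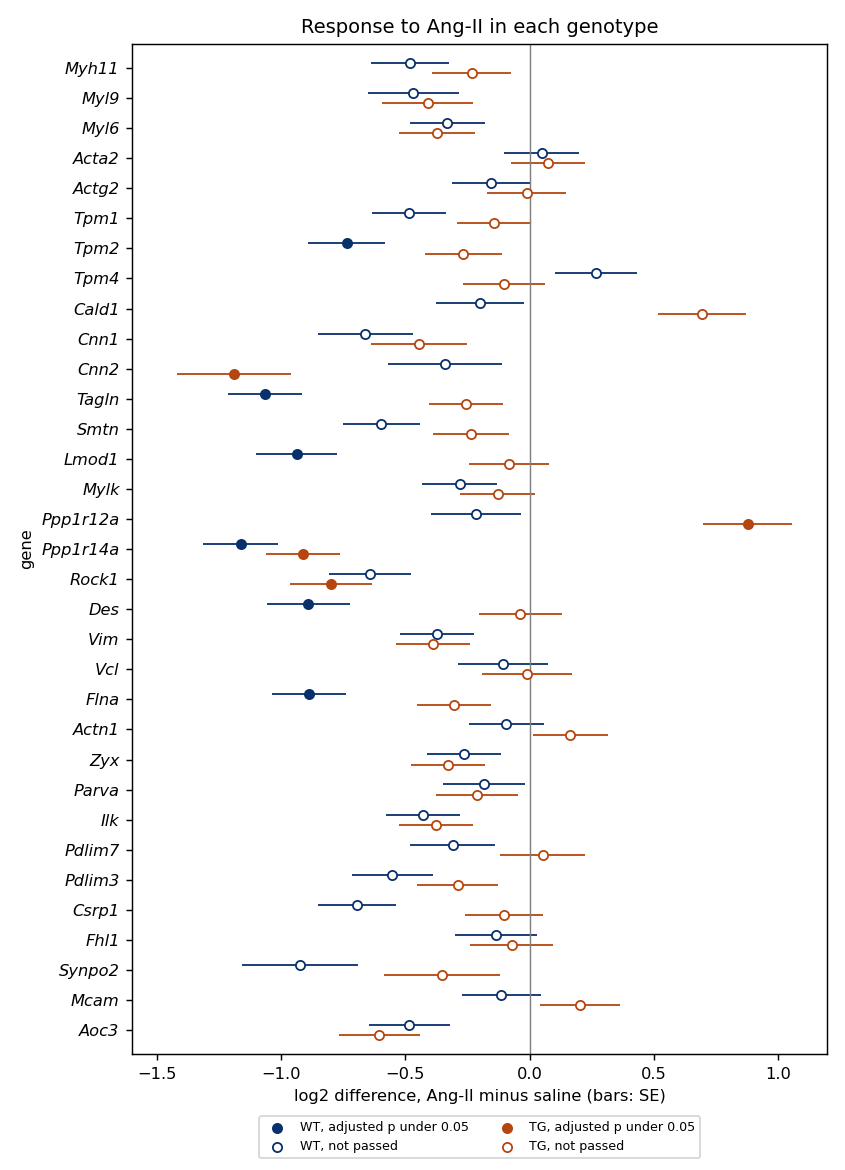
Ang-II minus saline per member, as log2 difference with its SE as bars, for WT and TG (x axis, log2 difference; rows, members by role; filled symbols passed at an adjusted p under 0.05). Tpm2, Tagln, Lmod1, Des and Flna were filled in WT only and Cnn2, Rock1 and Ppp1r12a in TG only, while Ppp1r14a was filled in both; no interaction passed.

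Of the 2 measured intermediate filament genes, Des gave the largest genotype difference of the set under Ang-II. Vim went the other way there (-0.23) and did not pass. Des, desmin, the muscle intermediate filament protein, read 10.25 on WT saline, 10.67 on TG saline, 9.27 and 9.44 on WT Ang-II and 10.57 and 10.69 on TG Ang-II. The WT Ang-II arrays were the lowest, and the TG Ang-II arrays enclosed TG saline. Des fell 1.86-fold in WT (-0.89 ± 0.17, adjusted p = 0.0329) and differed by -0.04 ± 0.17 in TG (adjusted p = 0.918). Under Ang-II it was 2.41-fold higher in TG than in WT (1.27 ± 0.14, adjusted p = 0.00832), a call lost without either WT Ang-II array (adjusted p = 0.0764 and 0.0593) and kept without either TG one. Between the saline arrays TG was higher by 0.42 ± 0.19 (adjusted p = 0.419), and the interaction was 0.86 ± 0.24 (adjusted p = 0.195). Desmin is also a protein of heart and skeletal muscle. Of 11 heart markers, 8 fell in WT, 9 rose in TG and 10 were higher in TG under Ang-II, with medians of -1.55, 3.78 and 4.69, and of 3 measured skeletal muscle markers Acta1 and Ckm rose in TG, while 8 of the 12 listed, the myosin heavy chains Myh1, Myh4 and Myh7 among them, were not kept. Acta1, skeletal actin, read 11.11 and 11.00 on TG Ang-II against 4.73 to 5.86 elsewhere. The part of heart or skeletal muscle RNA in the Des values was not tested. Vim, vimentin, the intermediate filament of mesenchymal cells and of vascular smooth muscle, read 14.06 on WT saline, 13.85 on TG saline, 13.71 and 13.67 on WT Ang-II and 13.45 and 13.48 on TG Ang-II. It was below both saline arrays on all 4 Ang-II arrays and did not pass (average -0.38, adjusted p = 0.0580).

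**Figure D4:**
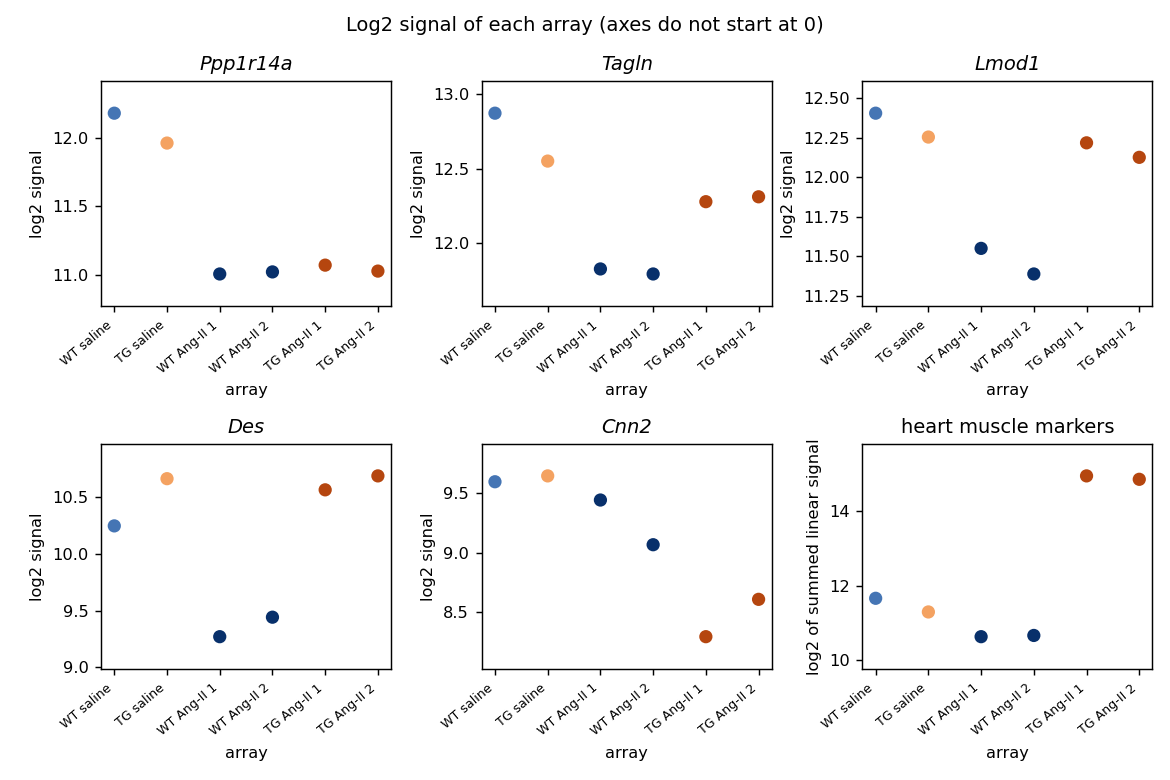
Log2 signal on each of the 6 arrays for Ppp1r14a, Tagln, Lmod1, Des and Cnn2, and in the last panel the log2 of the summed linear signal of 11 heart markers. The heart sum was 31224 and 29307 on the TG Ang-II arrays and 1587 to 3232 on the other 4.

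At the adhesion plaques, Flna fell in WT and Flna and Ilk in the average, out of 6 measured members. Flna, filamin A, which crosslinks actin and binds integrins, read 14.00 on WT saline, 13.67 on TG saline, 13.10 and 13.13 on WT Ang-II and 13.34 and 13.38 on TG Ang-II. All Ang-II arrays were below both saline arrays, the WT ones lowest. It fell 1.85-fold in WT (-0.89 ± 0.15, adjusted p = 0.0249) and 1.51-fold in the average (adjusted p = 0.0172), with -0.30 ± 0.15 in TG (adjusted p = 0.274). The WT call was lost without either WT Ang-II array (adjusted p = 0.107 and 0.103), and the average likewise (0.0553 and 0.0540). Ilk, integrin-linked kinase, read 12.93 on WT saline, 12.82 on TG saline, 12.50 and 12.50 on WT Ang-II and 12.42 and 12.46 on TG Ang-II. The 4 Ang-II arrays lay together below the saline ones. Ilk fell 1.32-fold in the average (-0.40 ± 0.11, adjusted p = 0.0497), and its call ended without any single Ang-II array. Vcl (vinculin), Actn1 (α-actinin), Zyx (zyxin) and Parva (α-parvin) differed by between -0.26 and -0.09 in WT and did not pass. Vcl is the member whose box lies farthest from the start.

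Of the 5 measured LIM and PDZ scaffold proteins, which bind actin or α-actinin, only Synpo2 (synaptopodin 2) passed by its brightest probe. It read 6.46 on WT saline, 6.22 on TG saline, 5.72 and 5.36 on WT Ang-II and 5.69 and 6.04 on TG Ang-II, near the lowest detected values of 5.54 to 5.69, and was detected on 1 of the 2 WT Ang-II arrays (not on the second). All Ang-II arrays were below both saline arrays. Synpo2 fell 1.56-fold in the average (-0.64 ± 0.17, adjusted p = 0.0482), lost without the first TG Ang-II array and without either WT one (adjusted p from 0.0625 to 0.109). Csrp1, a LIM protein of smooth muscle, missed the threshold in WT at -0.70 (adjusted p = 0.0518), and the brighter probe of Pdlim3 in the average at -0.42 (adjusted p = 0.0569), while its second probe (ILMN_1235230) fell (-0.53, adjusted p = 0.0250). At the cell surface, Aoc3, an amine oxidase abundant on smooth muscle, read 13.95 on WT saline, 14.00 on TG saline, 13.42 and 13.50 on WT Ang-II and 13.31 and 13.48 on TG Ang-II. The groups by treatment did not overlap. Aoc3 fell 1.46-fold in the average (-0.55 ± 0.12, adjusted p = 0.0280), a call lost without the first TG Ang-II array and without either WT one (adjusted p from 0.0534 to 0.0784). Mcam, an adhesion molecule of smooth muscle and endothelium, differed by -0.11 in WT and 0.20 in TG and did not pass.

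Probes of one gene did not always move together, and 14 members had several kept probes. Their signs were the same within a gene for 11 of 14 in WT and for 8 of 14 in TG. Of the 5 Acta2 probes, the fourth by brightness (ILMN_2710353) read 15.08, 14.64, 14.59, 14.28, 14.25 and 14.22 on WT saline, TG saline, WT Ang-II and TG Ang-II, and fell in the average (-0.53, adjusted p = 0.0437), unlike the brightest. The dimmest Acta2 probe (ILMN_1237242) read 10.87, 9.91, 10.41, 10.47, 10.53 and 10.50, with a low TG saline array, a TG difference of 0.61 (adjusted p = 0.0709) and an interaction of 1.04 (adjusted p = 0.105). A Mylk probe (ILMN_1219471) read 13.32, 12.46, 12.98, 12.90, 13.26 and 13.03 and differed by 0.68 in TG (adjusted p = 0.0769), where the brightest Mylk probe differed by -0.13. The direction of Acta2 and of Mylk depended on the probe. TG saline was the lowest array for 8 of 58 member probes, 2 each of Cald1 and Mylk and 1 each of Acta2, Ppp1r12a, Tpm4 and Vim, against 16.6% of all kept probes.

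Counted over all 58 kept probes, 9 fell and 0 rose in WT (2.72% and 6.35% of all probes). To the 6 gene calls these added a second Ppp1r14a probe, a second Smtn probe (-0.97, adjusted p = 0.0481) and the dimmest Fhl1 probe (-0.71, adjusted p = 0.0448), Fhl1 being a LIM protein of muscle whose brightest probe differed by -0.14. In TG 4 probes fell and 1 rose (1.73% and 5.84% of all probes), the addition being the same Fhl1 probe (-0.77, adjusted p = 0.0415). In the average 20 fell and 3 rose (7.55% and 11.6%). The 7 falls beyond the gene calls were of dimmer probes of Acta2, Pdlim3, Ppp1r14a, Smtn and Fhl1, of Tpm1 (ILMN_2518346, -0.45, adjusted p = 0.0402) and of Ppp1r12a (ILMN_2671438, -0.49, adjusted p = 0.0351). The 3 that rose were dimmer probes of Vim (0.52, adjusted p = 0.0269), Cald1 (0.84, adjusted p = 0.0428) and Tpm4 (0.51, adjusted p = 0.0289), each with a brighter probe of the gene that did not pass. All 3 Tpm4 probes were above 0 in WT (0.27 to 0.44) and in the average (0.08 to 0.51), while in TG they ran from -0.10 to 0.58. That Cald1 probe (ILMN_1254073) read 9.47, 8.02, 9.86, 9.75, 9.72 and 9.02, lowest on TG saline, and the Vim probe (ILMN_1232980) 5.29, 5.20, 5.88, 5.78, 5.67 and 5.71.

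**Figure D5:**
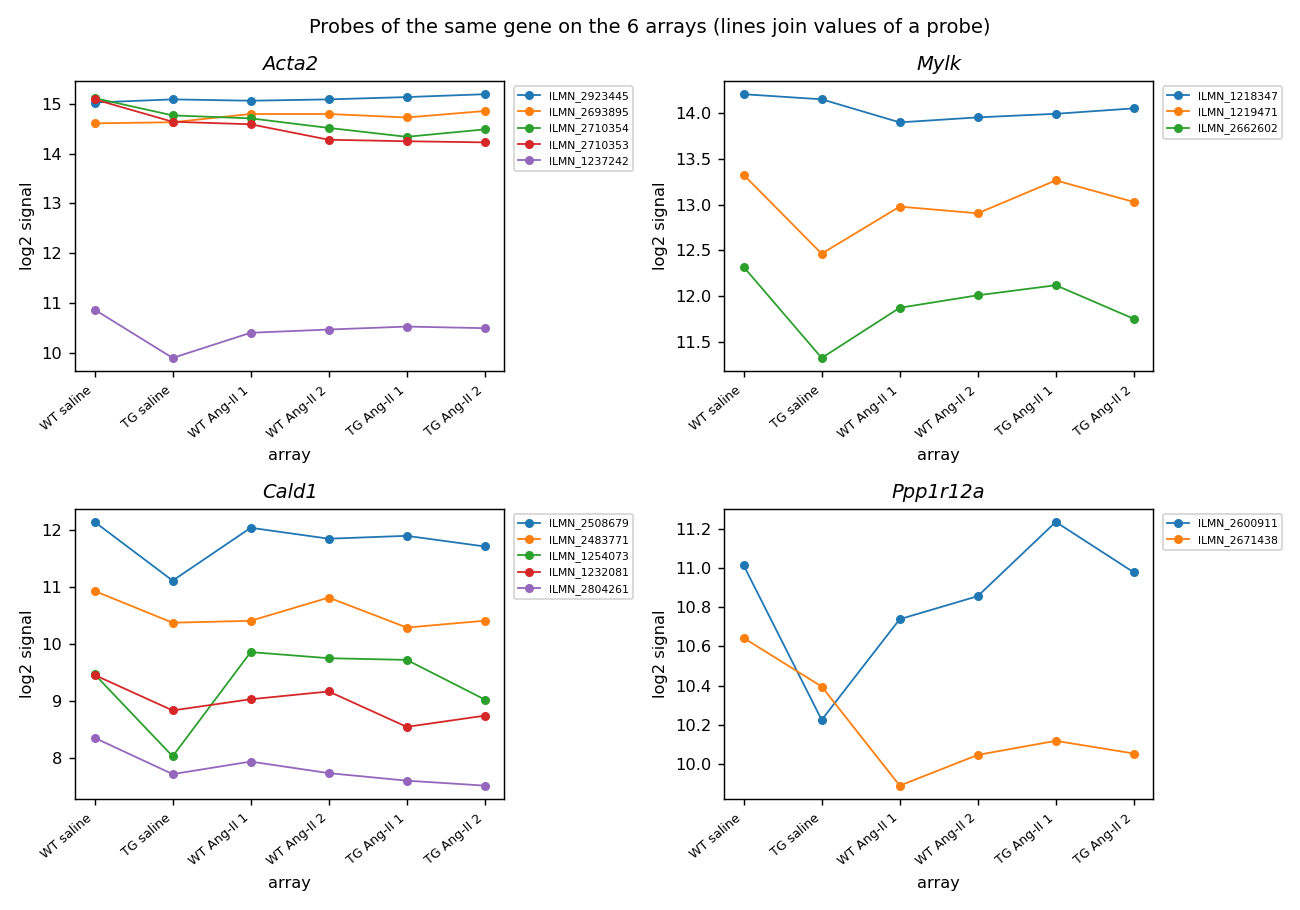
Log2 signal of every kept probe of Acta2 (5), Mylk (3), Cald1 (5) and Ppp1r12a (2) on the 6 arrays, 1 line per probe. Several lines dip on the TG saline array while the brightest Acta2 and Mylk lines stay nearly level, and the pair of Ppp1r12a probes part in TG.

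Lists of related genes outside the set had medians near those of all genes in both responses, but not in every comparison. Of 20 measured genes of nonmuscle actin and myosin (22 listed), Cotl1, a coactosin-like actin-binding protein, rose in WT (1.00 ± 0.17, adjusted p = 0.0244) and Myh9, a nonmuscle myosin heavy chain, in TG (0.79 ± 0.16, adjusted p = 0.0443), and none fell. In the average Cotl1 and Myh9 rose, and Dstn (destrin) and Gsn (gelsolin), which sever actin filaments, fell, by 0.57 and 0.52 on the log2 scale (adjusted p = 0.0195 and 0.0437). The medians of these 20 genes were -0.05 in WT and -0.05 in TG, against -0.05 and -0.06 over all genes. In this list Cap1, a cyclase-associated actin-binding protein, was higher in TG under Ang-II (3.80 ± 0.24) and under saline (5.10 ± 0.33, adjusted p = 0.0155), with 7.39, 8.91 and 8.23 on the WT arrays and 12.49, 12.34 and 12.40 on the TG arrays.

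Of 23 measured further smooth muscle cytoskeletal genes (30 listed), Pcp4l1 fell in WT (-1.09 ± 0.20, adjusted p = 0.0330), and Pcp4l1, Pxn (paxillin) and Smtnl2 (smoothelin-like) fell in the average, with no rise. The list medians were -0.03 in WT and 0.07 in TG. At an unadjusted p under 0.05 (limma), 8 were lower and 1 higher in WT (12.6% and 14.2% of all genes). In TG 2 were lower and 9 higher (10.6% and 12.1%). The interaction was above 0 for 19 of the 23 and below for 4, with a median of 0.48, so a positive interaction was not particular to the members. Between the saline arrays the list median was -0.33.

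Markers of the remaining cell types changed beside the set. Of 10 macrophage markers 8 rose in WT and 8 in TG, of 10 fibroblast markers 6 and 5, and of 5 red cell markers 5 in WT and 0 in TG. Fat cell markers rose for 4 of 6 and brown fat markers for 3 of 4 in WT, and for none of either list in TG. Of 9 endothelial markers 1 rose in WT and 3 fell in TG. The brightest pairs were Lyz2 (lysozyme) and C1qb (a complement subunit) for macrophages, Dcn (decorin) and Col1a1 (a collagen chain) for fibroblasts, Hbb-bs and Hba-a1 (globins) for red cells, Pnpla2 and Adipoq for fat, Cox8b and Cidea for brown fat, and Egfl7 and Vwf for endothelium. Col1a1 lay at 12.46 and 12.20 on the saline arrays and at 13.74 to 14.32 on the Ang-II arrays, which did not overlap. Vwf (von Willebrand factor) was highest on TG saline at 11.77, against 10.58 to 11.07 elsewhere. Hbb-bs lay at 13.13 on WT saline and at 14.99 and 15.06 on WT Ang-II, with the TG arrays between at 13.93 to 14.26. In the array order used above, the summed signal was 6752, 5273, 13329, 13875, 10920 and 11074 for macrophage markers, 50480, 50252, 90172, 89040, 87573 and 85357 for fibroblast markers and 24392, 43943, 92337, 91526, 47041 and 52162 for red cell markers. The macrophage and fibroblast sums were higher under Ang-II in both genotypes, where the members were lower. The red cell sum changed far less in TG than in WT. The part of these sums in the lower values of the members was not tested. With the heart, skeletal muscle, fat and red cell probes left out of the normalization, 5 members fell in WT, 11 in the average and 2 were higher in TG under Ang-II, a setting chosen after seeing the data.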

How the data were processed

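Per the labels' protocols, total RNA of thoracic aorta was extracted with Trizol and labelled as biotin-aRNA. The submitters' processing notes name GenomeStudio 2011.1 and limma 3.22.1 without roles. The signal columns are, per the file headers, mean bead intensities of a probe, not normalized, with their standard error over beads (same intensity scale), the number of beads and a detection p-value. The deposited value table holds log2 values, which equal within 1e-08 those computed here from the intensities by neqc (offset 16) in limma 3.58.1 (R 4.3.3).

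Gene symbols came from the platform annotation, updated through the RefSeq gene table of GRCm38.p6. A model of 4 group means was fitted with limma to all 6 arrays and 16749 kept probes (2 residual and 3.75 prior degrees of freedom, prior SD 0.15), with Benjamini-Hochberg adjustment over all kept probes of a comparison. The few arrays limit the precision: the median SE of a member's difference was 0.16 for a genotype's response, 0.11 for their average and 0.23 for the interaction, and 0.13 (Ang-II) and 0.18 (saline) for TG against WT. Each saline group had 1 array, so the residual spread came from the Ang-II arrays only. The SEs and p-values of comparisons with saline thus hold no measured spread between saline arrays. Intervals are not adjusted for the number of tests.

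The members, lists and tests were chosen with earlier results of these data known. Values on every array are given for each member that passed in a comparison and for Acta2, Myh11, Tagln, Cnn1, Mylk, Des and Vim. Of each related list, up to 3 genes that passed with the smallest adjusted p are named, and of marker lists the brightest pair; Myh9, Gsn, Acta1, Ckm and the unkept markers were named after their values were seen. The replicate numbers of the Ang-II arrays were not taken as pairs. The alternatives were other background corrections, offsets, scalings, filters, priors, probes and array weights, the deposited table, a replicate block, and each Ang-II array left out. One item and the list of related genes that needs it are not reported here.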

Additional observations from a re-analysis of the deposited data

How the results depend on the processing

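Members that passed numbered 6 (WT response), 4 (TG response), 13 (average response), 2 (TG against WT with Ang-II), 0 (TG against WT with saline) and 0 (interaction). In that order they became 16, 6, 22, 6, 2 and 5 under quantile normalization without background correction, 11, 6, 19, 5, 1 and 1 with an offset of 50, 20, 12, 24, 9, 3 and 7 with a trended robust prior, and 3, 1, 6, 1, 0 and 0 without a detection filter. Detection on all 6 arrays gave 9, 5, 16, 4, 0 and 0, median scaling 8, 4, 11, 3, 0 and 0, the mean of a gene's probes 9, 2, 16, 3, 0 and 0, and the second brightest probe 6, 1, 15, 2, 0 and 0. A replicate block of the Ang-II arrays, whose numbers are not known to pair them (r = 0.115 over 16749 probes, 2 pairs), gave 5, 2, 11, 3, 0 and 0. The deposited table and array weights gave the counts above, and the 4 Ang-II arrays alone gave 2. Normalization without marker probes, chosen after seeing the data, gave 5, 4, 11, 2, 0 and 0. Leaving out 1 Ang-II array gave 0 to 5 in WT, 0 to 1 in TG, 3 to 8 in the average and 0 to 1 between genotypes; leaving out a saline array, which removes that genotype's response, was not run. Calls over all 16749 probes moved as well. In the same order of comparisons they were 1518, 1268, 3209, 885, 31 and 199 in the main fit. They became 2939, 2240, 4763, 1807, 646 and 730 without background correction, and 2323, 1786, 4196, 1466, 314 and 446 with an offset of 50. The trended prior gave 3015, 2303, 4771, 1868, 735 and 775, and median scaling 2131, 1669, 3749, 964, 124 and 276. No detection filter gave 781, 604, 2106, 483, 1 and 60 of 45281. The median of the members in WT stayed between -0.48 and -0.37 under all settings run. Directions turned with the probe. For Acta2 the WT difference became -0.27 with the mean of its probes and -0.43, -0.65 and -0.50 with 3 other probes, the TG difference -0.40 and -0.35 with 2 others, the average -0.13 (mean), -0.53 and -0.43, and the genotype difference under Ang-II -0.047 (mean), -0.0051, -0.20 and -0.20. For Vim the mean and the dim probe gave 0.085 and 0.54 in WT, 0.051 and 0.49 in TG, and 0.068 and 0.52 in the average. For Mylk the mean and both other probes gave 0.39, 0.68 and 0.61 in TG and 0.021, 0.15 and 0.12 in the average, and 1 probe gave -0.0055 between genotypes under Ang-II. Ppp1r12a was -0.31 in TG with its second probe, and Des ranged from -0.098 to 0.025 in TG with 1 TG Ang-II array left out. Of the other values of single genes, 598 kept their direction and side of the threshold, 97 lost their call and 25 gained one. The cause of these changes was not tested.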
